A study of Mus musculus with 144 samples.

Results

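The CC chemokine family was followed through single Iba1-positive cells of the mouse retina, as the 8 genes Ccl2, Ccl3, Ccl4, Ccl5, Ccl6, Ccl7, Ccl9 and Ccl12 among the 55364 genes measured. The members were taken by gene name, and the list was set with earlier results of these data known. The cells carried the label microglia and came from mice of the strain Iba1-EGFP, whose Iba1-positive cells make green fluorescent protein, and each was sorted by flow cytometry into its own well. One group was given PBS (mice of 10 to 14 weeks), one ripasudil, an inhibitor of the kinase ROCK, at 1 mg/kg (14 weeks) and one ripasudil at 10 mg/kg (12 weeks). These are called PBS, low dose and high dose below. There were 48 cells a group, spread evenly as 16 per plate over 3 plates. The series asks how ROCK inhibition alters the expression of Iba1-positive retinal cells, and its title concerns optic nerve injury, but the labels do not say whether these eyes were injured. Dose and age cannot be told apart, nor can dose and the block of wells that each group filled on every plate. No animal was named, so each group counts as 1 sample and no test, standard error or p-value across cells is given.

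Chemokines are small secreted proteins that steer leukocytes along concentration gradients through receptors coupled to G proteins. The CC class is named for a pair of adjacent cysteines near the start of the mature protein. In mouse, Ccl2, Ccl7 and Ccl12 signal through Ccr2, the receptor that draws monocytes out of the blood. Ccl3 and Ccl5 signal through Ccr1, and Ccl4, Ccl3 and Ccl5 draw macrophages and T cells. Ccl6 and Ccl9 are myeloid ligands of Ccr1. Microglia are both a source and a target of such signals, and several of the genes are switched on by NF-kB and AP-1 within minutes to hours of a stimulus.

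All members lie in the chemokine clusters of chromosome 11 (GRCm38), and none shares an exon base with another annotated gene. Ccl2 (ENSMUSG00000035385) spans 82035571 to 82037453, Ccl7 82045712 to 82047525 and Ccl12 82101845 to 82103400, all on the plus strand. The second cluster holds Ccl5 (83525778 to 83530518), Ccl9 (83572919 to 83578636), Ccl6 (83587882 to 83593087) and Ccl3 (83647844 to 83649355) on the minus strand, and Ccl4 (83662584 to 83664683) on the plus strand. The stretch of coding sequence that gives the family its name is shown for members of both clusters, 12 codons from GENCODE M21 with the adjacent pair of cysteine codons in capitals.
Ccl2: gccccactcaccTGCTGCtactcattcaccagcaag
Ccl7: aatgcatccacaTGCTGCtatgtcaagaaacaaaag
Ccl12: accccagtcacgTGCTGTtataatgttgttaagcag
Ccl4: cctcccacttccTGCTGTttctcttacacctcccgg
Ccl5: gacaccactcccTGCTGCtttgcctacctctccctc
Ccl6: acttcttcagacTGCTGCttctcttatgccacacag
Ccl9: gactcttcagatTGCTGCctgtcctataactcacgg
A pair of adjacent cysteine codons was found once in this part of each coding sequence. Over whole coding sequences, the closest pairs were Ccl2 and Ccl7 (72.4% of aligned bases identical, gaps left out), Ccl3 and Ccl4 (71.4%) and Ccl6 and Ccl9 (70.6%). The longest run of identical coding bases was 23, between Ccl6 and Ccl9, and at most 17 in any other pair. Ccl6 and Ccl9 were also the members whose values were whole reads least often, at 69.3% and 67.6% of values above 0, against 91.0 to 98.6% for the others. How reads that match several genes were assigned is not given in the sources used here. Between members only coding sequences were compared, and the source of values that were not whole reads was not tested. Because values of Ccl6 and Ccl9 were whole reads least often, small values of these genes are treated as the least certain.

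Promoters of 4 members (Ccl12, Ccl3, Ccl6 and Ccl9) were in the RefSeq table used here (GRCm38.p6). Those of Ccl12 (chr11:82101595-82101844, plus strand), Ccl9 (chr11:83578637-83578886, minus strand) and Ccl3 (chr11:83649379-83649628, minus strand) are printed from base -250 to base -1 before the start that RefSeq gives, which for Ccl3 lies upstream of the GENCODE start above, since Ccl12 was the most abundant member and the motif matches fell in Ccl12 and Ccl9. Capitals mark matches to GGANNTTCC (NF-kB like), TGANTCA (AP-1 like) or TTCNNNGAA (STAT like), searched on both strands.
Ccl12: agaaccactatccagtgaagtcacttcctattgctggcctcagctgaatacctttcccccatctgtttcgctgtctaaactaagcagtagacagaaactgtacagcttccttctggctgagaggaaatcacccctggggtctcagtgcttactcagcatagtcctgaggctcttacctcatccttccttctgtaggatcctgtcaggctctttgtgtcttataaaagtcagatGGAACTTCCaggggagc
Ccl9: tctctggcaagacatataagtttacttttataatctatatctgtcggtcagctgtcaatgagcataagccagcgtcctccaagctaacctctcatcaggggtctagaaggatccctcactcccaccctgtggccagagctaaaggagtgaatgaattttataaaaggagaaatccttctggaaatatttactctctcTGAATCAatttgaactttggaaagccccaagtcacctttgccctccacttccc
Ccl3: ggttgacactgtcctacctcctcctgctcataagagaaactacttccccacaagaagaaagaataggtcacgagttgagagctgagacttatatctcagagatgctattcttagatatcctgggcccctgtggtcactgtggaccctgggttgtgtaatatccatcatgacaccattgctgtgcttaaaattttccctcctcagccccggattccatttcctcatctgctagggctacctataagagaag
Ccl12 held a GGANNTTCC match from -17 to -9, a motif found in 3.59% of 32851 promoter windows of the same length. Ccl9 held a TGANTCA match from -53 to -47, found in 6.75% of the windows. No letters of these motifs matched in the Ccl3 or Ccl6 windows, and TTCNNNGAA, found in 7.02% of all windows, matched in none of the 4. These matches are a description of the letters and not of binding.

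Of 144 cells, 140 reached 1000 genes with FPKM at or above 1 and were kept (46 PBS, 47 low dose and 47 high dose). FPKM is reads scaled to the length of the gene and to all assigned reads of the cell, so levels can be compared between genes. Assigned reads ranged from 30204 to 4668736 per kept cell with a median of 1614850, and 9 kept cells had under 300000. Detected genes had a median of 3143 in PBS cells, 2418 under the low dose and 2264 under the high dose. All 140 cells held at least 3 of 10 microglial markers. At an FPKM of 1 or more, Csf1r and C1qa were in every cell, Tmem119 in 88.6% and P2ry12 in 77.9%. The least found of the 10 were Fcrls, in 59.3% of cells, and Sall1, in 23.6%. At least 3 border macrophage markers were found in 12 cells (5 PBS, 4 low, 3 high), 3 or more rod markers in 24 (6, 7 and 11), 3 or more neutrophil markers in 26 (10, 8 and 8) and 3 or more monocyte markers in 4. The FPKM summed over a marker list had medians over the 140 cells of 2.21 (neutrophil), 0.812 (rod) and 0.335 (border macrophage). In the highest cell of each list the sum was 127224, 16808 and 5754, so not all of these values were low. Whether values of these markers, low or high, are RNA of the cell they are listed in was not tested.

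The family took a median of 0.780% of a cell's assigned reads, from 0.000787% to 7.96%. By mean FPKM over the 140 cells the order was Ccl12 (10838), Ccl4 (2378), Ccl3 (1047), Ccl6 (723), Ccl2 (241), Ccl7 (235), Ccl9 (174) and Ccl5 (76.7). Ccl12 ranked 7 among all 55364 genes and Ccl4 ranked 31, while Ccl5 ranked 948. On the log2(FPKM + 1) scale the SD over cells was 2.49 to 4.14 for the members, which is more than the distance between any neighbours in the order of mean log2 level except Ccl12 (11.59) and Ccl4 (7.37). Ccl6 (6.32) and Ccl3 (6.11), and Ccl2 (3.84) and Ccl9 (3.75), lay close together on that scale.

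Several members fell into a low and a high range of values rather than into a single one. Ccl3, for example, was at an FPKM of 1 or more in 132 of 140 cells but at 100 or more in 62, with 27 cells between 10 and 100. The split was less clear for Ccl4, with 42 cells between 10 and 100, and Ccl12 was mostly above 100. Over 600 genes at 100 or more in 25 to 75% of cells, a median of 13.6% of cells lay between 10 and 100. That is a smaller share than for Ccl3 or Ccl4, whose split was thus less sharp than that of a typical such gene. Such a split is therefore not particular to the family. A line at an FPKM of 100, chosen after the values were seen, is used below to count cells in the high range. In the median cell this line stood for 86.7 to 492 reads, depending on the member, and in the smallest kept cell for 1.62 to 9.20 reads. Close to the line, from 50 up to 100 or from 100 up to 200, lay 6 and 8 cells for Ccl2, 5 and 7 for Ccl4, 6 and 11 for Ccl6, and 10 and 9 for Ccl9.

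The low range had a feature that the members shared. The median of the cells under 100 was 0.411% of the gene's mean FPKM for Ccl12, 0.437% for Ccl3, 0.509% for Ccl4, 0.492% for Ccl6, 0.460% for Ccl9 and 0.391% for Ccl2, although the means themselves spanned 174 to 10838. For Ccl5 and Ccl7 that median was listed at 0. Over the 600 genes with 25 to 75% of cells at 100 or more, the same quantity had a median of 0.779% and quartiles of 0.554% and 1.25%. Low values thus scaled with how much of the gene there was in all cells together, and whether a low value is RNA of the cell it is listed in was not tested. A gene called found in a cell below is one with a value there, which in the low range need not be expression by that cell. For this reason the counts below lead with the high range, and shares at an FPKM of 1 or more are given beside them.

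**Figure D1:**
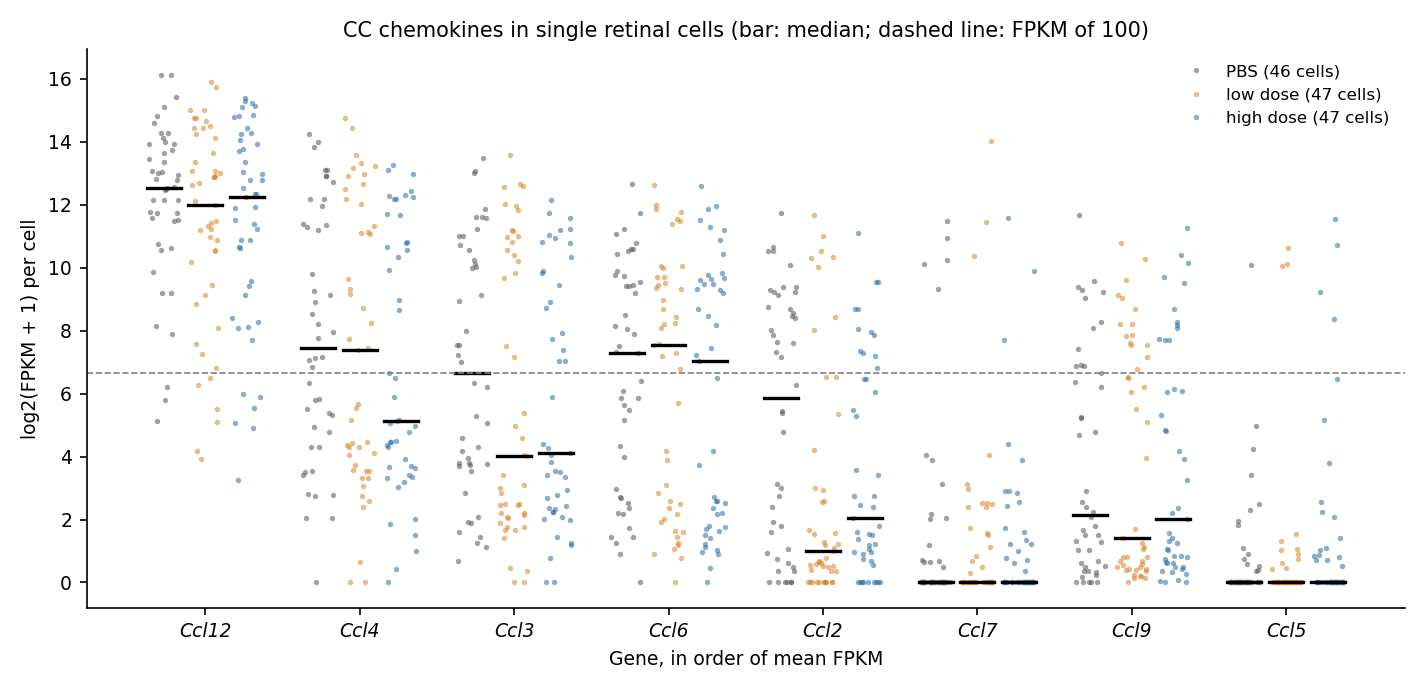
Level of each member in each kept cell as log2(FPKM + 1), by group, with the genes in order of mean FPKM. Points are cells, black bars are medians and the dashed line is an FPKM of 100. Ccl12 lies above the line in 125 of 140 cells, the other members split into cells above and below it, and Ccl5 and Ccl7 are above it in 8 and 11 cells.

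The ligands of Ccr2 differed in how widely they were expressed. Ccl12 had a value above 0 in all 140 cells and was at 100 or more in 125 of them. Its FPKM ran from 34.1 through a median of 5958 to 71993 in PBS cells, from 14.0 through 4041 to 61122 under the low dose and from 8.55 through 4865 to 42640 under the high dose. The ranges of the 3 groups overlapped almost entirely. In 1 cell Ccl12 alone took 3.87% of the assigned reads.

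Ccl2, the monocyte chemoattractant MCP-1, was in the high range in 42 cells. Its FPKM ran from 0 through a median of 59.3 to 3423 in PBS cells, from 0 through 0.978 to 3276 under the low dose and from 0 through 3.12 to 2213 under the high dose. The ranges overlapped fully, and the medians of all 3 groups lay under the line of 100. Ccl7 was in the high range in 11 cells, and its median was 0 in every group. The Ccl7 maxima were 2845 in PBS, 16650 under the low dose and 3081 under the high dose. All 42 Ccl2 cells and all 11 Ccl7 cells were also in the high range of Ccl12, and 10 of the 11 Ccl7 cells were Ccl2 cells. Ccl12 was high in 84.7% of cells without high Ccl2 and in 88.4% of cells without high Ccl7, so a large overlap with it was to be found in any case.

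In the second chromosomal cluster, Ccl4 (MIP-1 beta) was in the high range in 71 cells, Ccl3 (MIP-1 alpha) in 62 and Ccl5 (RANTES) in 8. Ccl4 ran from 0 through a median of 179 to 19295 in PBS cells, from 0 through 168 to 27927 under the low dose and from 0 through 34.1 to 9819 under the high dose. Ccl3 ran from 0.611 through 103 to 11481 in PBS cells, from 0 through 15.1 to 12328 under the low dose and from 0 through 16.2 to 4529 under the high dose. For both genes the highest cell of the high dose lay below the highest cells of the other groups. Ccl5, which T cells also make, was found in few cells, and no cell held 3 or more of 8 T and NK cell markers. Its high cells were at 1081 in PBS, at 1067, 1115 and 1595 under the low dose and at 327, 603, 1699 and 3005 under the high dose.

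The myeloid ligands of Ccr1 came next. Ccl6 was in the high range in 75 cells, and ran from 0 through a median of 157 to 6438 in PBS cells, from 0 through 185 to 6341 under the low dose and from 0 through 129 to 6233 under the high dose. These 3 distributions had nearly the same span. Ccl9 was in the high range in 39 cells, with maxima of 3301, 1762 and 2448 in PBS, low dose and high dose, and medians of 3.45, 1.68 and 3.03.

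A median of 3 members per cell were in the high range (4 in PBS cells, 3 at each dose). In 6 cells there was none and in 21 only Ccl12. The combination of Ccl2, Ccl3 and Ccl4 was seen in 14 PBS cells, 7 from the low dose and 6 from the high dose. These counts are bounded by the cells with high Ccl2, which numbered 22, 8 and 12, and PBS cells had the most detected genes. A single cell, of the low dose on plate 2, had all 8 members in the high range. In that cell Ccl7 was at 16650, Ccl4 at 27927 and Ccl3 at 12328, each the highest of the 140 cells, and the next cell for Ccl7 was at 3081. It held 9 of 10 microglial markers and none of 8 border macrophage markers. This cell carried 80.0% of the summed Ccl7 FPKM of the low dose. With it, the ratio of the mean Ccl7 FPKM of low dose and PBS was 1.38 on the log2 scale, and without it -0.90.

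Ccl3 and Ccl4, which are neighbours on the chromosome, were the pair most often found together, pairs with Ccl12 aside. Of 62 Ccl3 cells, 53 were Ccl4 cells (85.5%), and of 71 Ccl4 cells 74.6% were Ccl3 cells, while 18 of the 78 cells without high Ccl3 had high Ccl4 (23.1%). This held in each group, with 21 of 23 Ccl3 cells in PBS, 17 of 19 under the low dose and 15 of 20 under the high dose. Their Pearson r, over 140 cells after the mean of each group on each plate was taken away, was 0.70, and 0.62 when the number of detected genes was also taken away. The r was 0.78 within the 53 cells with both genes high and 0.69 within the 60 cells with both low. The ratio of Ccl4 to Ccl3 was alike in both sets of cells, with a median of 2.07 (quartiles 1.36 and 2.88) where both were high and 2.13 (1.56 and 3.56) where both were low, and the ratio of their mean levels was 2.27. The r over all cells therefore also holds the low values described above, and the counts of high cells do not.

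**Figure D2:**
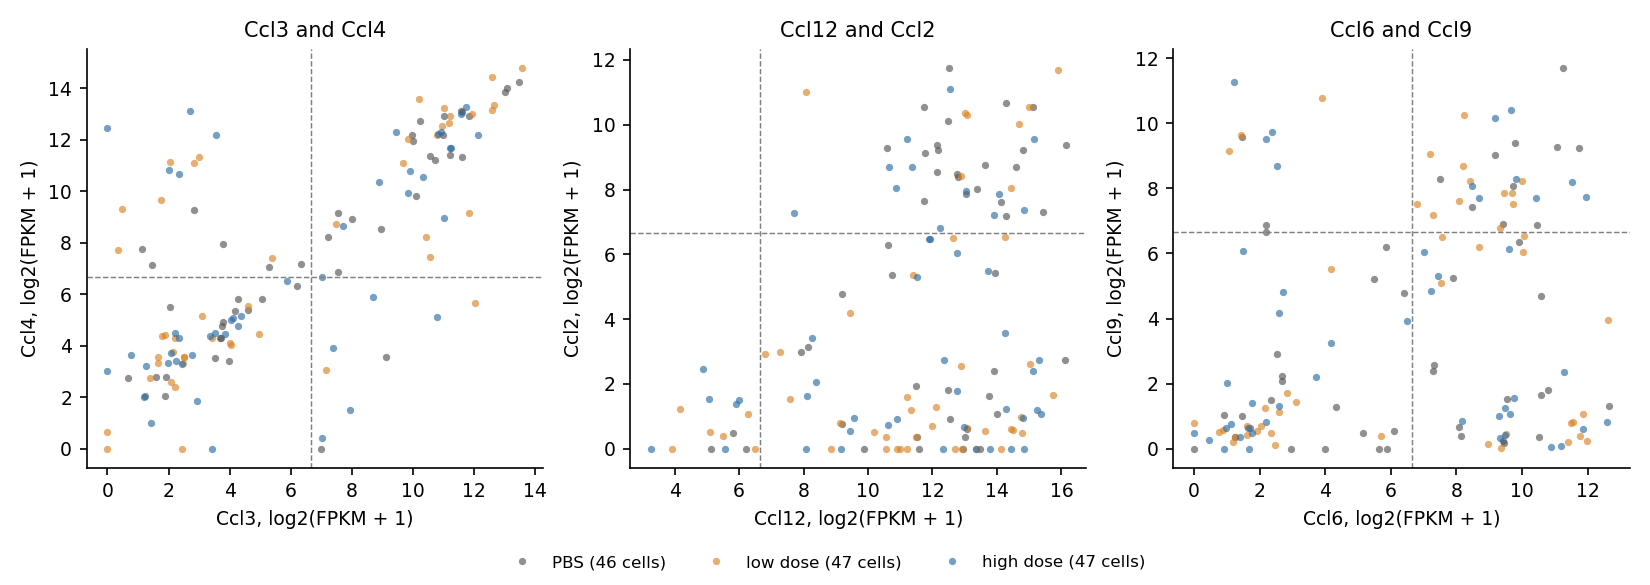
Level of Ccl4 against Ccl3, Ccl2 against Ccl12 and Ccl9 against Ccl6 in each kept cell, as log2(FPKM + 1), coloured by group, with dashed lines at an FPKM of 100. Most cells lie along 1 line of Ccl3 and Ccl4 in both ranges, and 30 cells are high for both Ccl6 and Ccl9. All 42 cells with high Ccl2 lie to the right of the Ccl12 line, as do 84.7% of the other cells.

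Ccl2 was often found with both. Ccl3 was high in 29 of 42 Ccl2 cells (69.0%) and in 33.7% of the other cells, and Ccl4 in 32 of 42 (76.2%) and in 39.8%. The r of Ccl2 was 0.45 with Ccl3, 0.47 with Ccl4 and 0.44 with Ccl7, and 0.29, 0.35 and 0.43 with detected genes also taken away. Ccl2, Ccl3 and Ccl4 moved with the number of detected genes themselves (r of 0.43, 0.52 and 0.43), and Ccl12 hardly did (0.14). High Ccl6 was found in 30 of 39 Ccl9 cells (76.9%) and high Ccl9 in 30 of 75 Ccl6 cells (40%), with an r of 0.23. Ccl6 was high in 21 of 42 Ccl2 cells (50%) and in 55.1% of the other cells, and its r with Ccl2 was -0.01. With Ccl3 and Ccl4 it overlapped more. Ccl6 was high in 44 of 62 Ccl3 cells (71.0%) and in 39.7% of the others, and in 48 of 71 Ccl4 cells (67.6%) and in 39.1% of the others. Ccl9 was high in 27.4% of Ccl3 cells and in 28.2% of the others, and in 29.6% of Ccl4 cells and in 26.1% of the others. Each cell is 1 library whose depth is common to all its genes, so these correlations are given as descriptions.

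**Figure D3:**
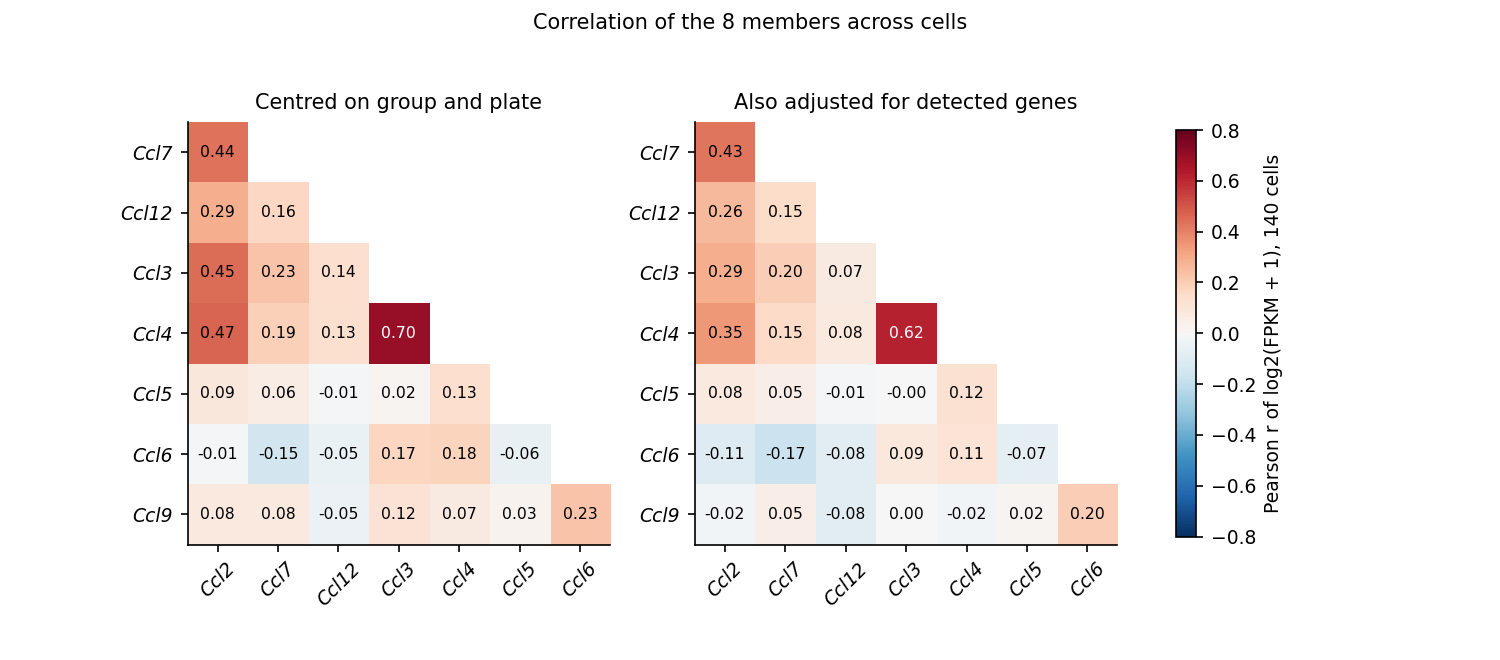
Pearson r between members over 140 cells, from log2(FPKM + 1) after subtraction of the mean of each group on each plate (left) and of a slope on log2 detected genes as well (right). The Ccl3 and Ccl4 square is the darkest, at 0.70 and 0.62, and the squares of Ccl6 and Ccl9 with the other members lie between -0.17 and 0.18.

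Among 2285 genes compared in the same way, those most like Ccl3 were Ccl4 (0.70), the transcription factors Jun (0.68), Atf3 (0.68) and Egr1 (0.67), and the stress phosphatase subunit Ppp1r15a (0.66). Ccl4 was most like Ccl3, Atf3 (0.65), Egr1 (0.60), the mRNA decay factor Zfp36 (0.60) and Jun (0.59). Most of these are immediate early genes, which a stimulus switches on without new protein. With detected genes taken away, the r of Ccl3 with Jun was 0.53 and that of Ccl4 with Atf3 was 0.54. Those most like Ccl2 were Snx2 (0.51), Rbm3os (0.51), Rbm3 (0.51), Rnf114 (0.50) and Ppp1r15a (0.49), and Rbm3 and Rbm3os lie at 1 locus, where reads cannot be told apart without strand. Those most like Ccl7 were the interferon-induced Ifit3 (0.58), Pf4 (0.55), Ms4a4a (0.54), the interferon-induced Oas1g (0.50) and the cholesterol hydroxylase Ch25h (0.45). Pf4 is 1 of the 8 border macrophage markers used here. Ccl7 was in the high range in 6 of the 12 cells with 3 or more such markers (50%) and in 5 of the other 128 (3.91%). Ccl2 was high in 5 of those 12 cells and in 37 of the other 128 (28.9%).

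For the remaining members the likest genes were less close. Ccl12 was most like the complement gene C1qa (0.39), Rpl38 (0.36), Bin1 (0.35), C1qb (0.33) and Siglech (0.33), most of them genes that microglia express steadily. Ccl6 was most like Vps29 (0.39), Creg1 (0.38), the lectin Lgals3 (0.38), Sec62 (0.36) and Rhog (0.35). Ccl9 was most like Bcl2a1b (0.41), Zmat2 (0.40), Ube2v1 (0.38), Magoh (0.38) and Snrpa1 (0.38). The summed level of the 8 members, compared with 2279 genes, was most like Tyrobp (0.37), Syngr2 (0.37), C1qa (0.36), Smap2 (0.36) and Mir5121 (0.35).

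Tnf, Il1a, Il1b and Gpr84 were counted in the same way, with no adjustment for detected genes, with which Ccl2, Ccl3 and Ccl4 moved. Tnf was at 100 or more in 32 of 62 Ccl3 cells (51.6%) and in 4 of the other 78 (5.13%). Il1a was at that level in 41 of 71 Ccl4 cells (57.7%) and in 4 of the other 69 (5.80%). Gpr84, the receptor for medium-chain fatty acids in the title of the series, was at that level in 25 of 42 Ccl2 cells (59.5%) and in 22 of the other 98 (22.4%). For Ccl6 the contrast was smaller, with Tnf in 24 of 75 Ccl6 cells (32%) and in 12 of the other 65 (18.5%). In Ccl9 cells Il1a was at 100 or more in 35.9%, against 30.7% of cells without high Ccl9. Il1b was at 100 or more in 9 cells in all, with 7.14% of Ccl2 cells against 6.12% of the others, 11.3% of Ccl3 cells against 2.56%, and 2.56% of Ccl9 cells against 7.92%.

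The comparison of each dose with PBS asks whether ripasudil changed the family. Ccl2 was the member with the largest difference. It was in the high range in 22 of 46 PBS cells (47.8%, exact 95% interval 32.9 to 63.1%), in 8 of 47 under the low dose (17%, 7.65 to 30.8%) and in 12 of 47 under the high dose (25.5%, 13.9 to 40.3%). These Clopper-Pearson intervals cover counting error only, since reads carried no molecular identifiers and cells of a group are not replicates of it. By plate, Ccl2 was high in 7 of 16, 7 of 16 and 8 of 14 PBS cells, in 2 of 15, 4 of 16 and 2 of 16 low dose cells, and in 3 of 15, 5 of 16 and 4 of 16 high dose cells. The share was thus lower than in PBS on each plate at both doses. At an FPKM of 1 or more, Ccl2 was found in 34 PBS cells (73.9%), 23 from the low dose (48.9%) and 32 from the high dose (68.1%). With reads thinned to 300000 a cell, for which 5, 1 and 3 cells of the groups were too shallow, 71.6%, 43.3% and 58.7% of PBS, low dose and high dose cells would hold at least 1 Ccl2 read.

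**Figure D4:**
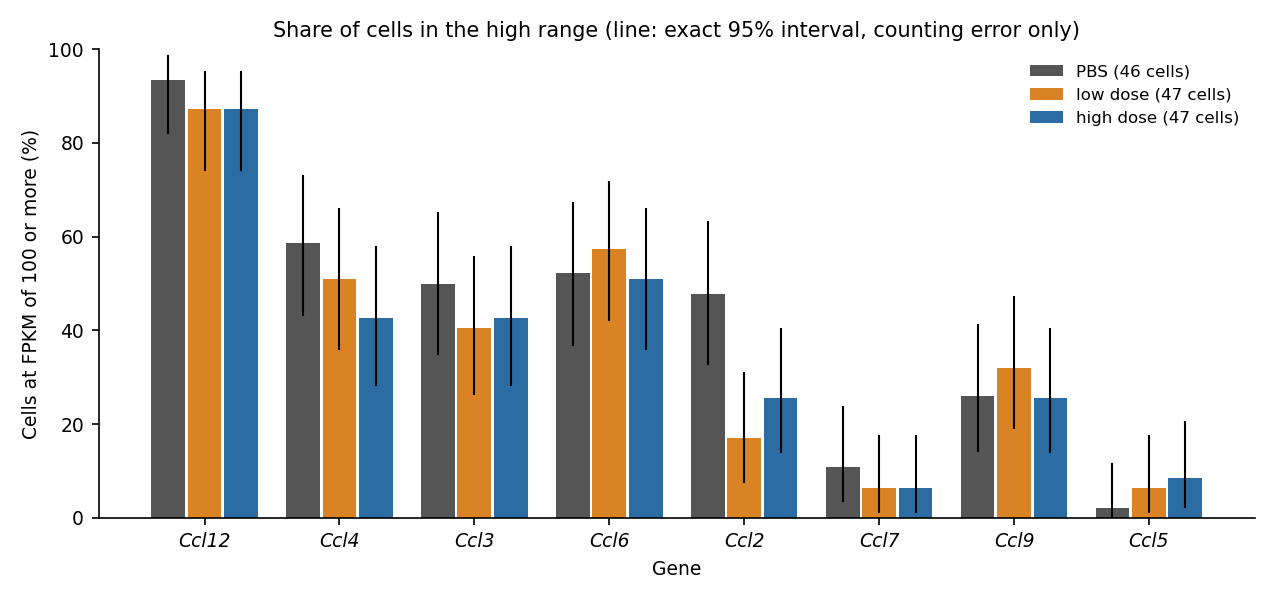
Percent of kept cells at an FPKM of 100 or more for each member, by group. Bars are shares and lines are exact 95% intervals for counting error only. Ccl2 is at 47.8% in PBS and at 17% and 25.5% at the low and high dose, and Ccl12 has the tallest bar in each group.

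PBS cells also had more detected genes, so Ccl2 was counted within terciles of that number. In the lowest tercile it was high in 1 of 8 PBS cells, 0 of 19 low dose cells (which allows a share of up to 17.6% by the exact 95% interval) and 1 of 20 high dose cells. In the middle tercile it was high in 8 of 18 (44.4%), 3 of 10 (30%) and 6 of 18 (33.3%), and in the highest in 13 of 20 (65%), 5 of 18 (27.8%) and 5 of 9 (55.6%). PBS was the highest group in each tercile, in the lowest through 1 cell. Without the cells with rod markers the shares were 55% in PBS, 15% under the low dose and 27.8% under the high dose. Without the cells with border macrophage markers they were 48.8%, 14.0% and 25%. Without the 28 cells with neutrophil or monocyte markers they were 48.6%, 17.9% and 23.7%.

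The difference of mean log2(FPKM + 1) for Ccl2, low dose minus PBS, was -2.44 (means 2.79 and 5.23), with -2.44, -1.51 and -3.45 on plates 1, 2 and 3. For high dose minus PBS it was -1.71 (mean 3.52 under the high dose), with -2.29, -0.31 and -2.64 on the plates. Both comparisons use the same PBS cells. Among cells in the high range alone, the mean log2 level of Ccl2 was 8.98 in PBS, 10.05 under the low dose and 8.34 under the high dose, with SDs over cells of 1.19, 1.23 and 1.25. These means are over 22, 8 and 12 cells picked by their Ccl2 level, so they do not compare the groups. The ratio of mean FPKM for the low dose was -0.54 on the log2 scale (means of 241 and 350), and the mean of the low dose was 175 without the cell that held all 8 members.

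Ccl2 was also the only member with a difference of -1 or less that was negative on all 3 plates, at either dose. Among all 4806 genes with FPKM at or above 1 in 25% or more of some group's cells, 4.93% met that description under the low dose and 13.4% under the high dose. All 8 members were among the 4806, Ccl5 only through the high dose, where 13 of 47 cells had it. In PBS 9 of 46 cells had Ccl5, and under the low dose 7 of 47. At the low dose 6 of 8 members were below 0, against 64.7% of all genes, and under the high dose 6 of 8, against 81.4%. Ccl5 and Ccl9 were the members above 0 at both doses. Since Ccl5 passed the filter only through the group where it was highest, its sign there is not weighed against all genes. The median over the 8 members was -0.33 under the low dose and -0.71 under the high dose, beside medians over all genes of -0.18 and -0.43. These counts are near the share for all genes, so as a group the members did not stand apart. On plate 2 the members' median was 0.11 under the low dose and 0.19 under the high dose, where 3 and 2 of the 8 were below 0. On plates 1 and 3 it was -0.79 and -0.39 under the low dose and -0.91 and -1.26 under the high dose. After adjustment for detected genes the medians over members were -0.01 and -0.04, and the Ccl2 difference under the high dose was -0.81.

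Ccl3, Ccl4 and Ccl12 were lower on average at both doses, without the same sign on all plates under the high dose. Under the low dose, Ccl3 (-1.71, -0.27 and -0.94) and Ccl4 (-0.40, -0.30 and -0.59) were negative on plates 1, 2 and 3. Ccl12 was not, with 0.40 on plate 2 of the low dose. Ccl3 differed by -0.97 under the low dose and -1.14 under the high dose, with 0.47 on plate 2 of the high dose. Ccl4 differed by -0.44 and -1.02, with 0.41 on plate 2 of the high dose. The number of cells with high Ccl4 was 27 in PBS, 24 under the low dose and 20 under the high dose, and that with high Ccl3 was 23, 19 and 20. Ccl12 differed by -0.86 and -0.78, and on plate 3 by -2.73 and -1.72. It was high in 43, 41 and 41 cells. In cells with at least 2000 genes the low dose difference was 0.76 for Ccl3 and 1.06 for Ccl4, and the high dose difference 0.20 for Ccl12. After adjustment for detected genes the high dose difference was 0.08 for Ccl3 and 0.01 for Ccl4, so the directions of Ccl3 and Ccl4 depended on how the number of detected genes was handled.

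Ccl6, Ccl7 and Ccl9 were near 0 or changed sign between plates. Ccl6 differed by -0.23 and -0.63 and was high in 24, 27 and 24 cells. Ccl9 differed by 0.19 and 0.03 and was high in 12, 15 and 12 cells, and Ccl7, with 5, 3 and 3 high cells, differed by -0.19 and -0.29. Ccl5 was the member with the most positive value against PBS under the high dose, 0.71, where the plates gave 1.89, 0.02 and 0.38. It had passed the gene filter only through that group, so this direction is not read as a result. Its low dose difference was 0.05, and -0.15 without the cell that held all 8 members, which also moved Ccl7 to -0.46. Of its 4 high cells under the high dose, 3 were on plate 1. At 1, 3 and 4 high cells a difference in Ccl5 was not detectable with this number of cells.

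**Figure D5:**
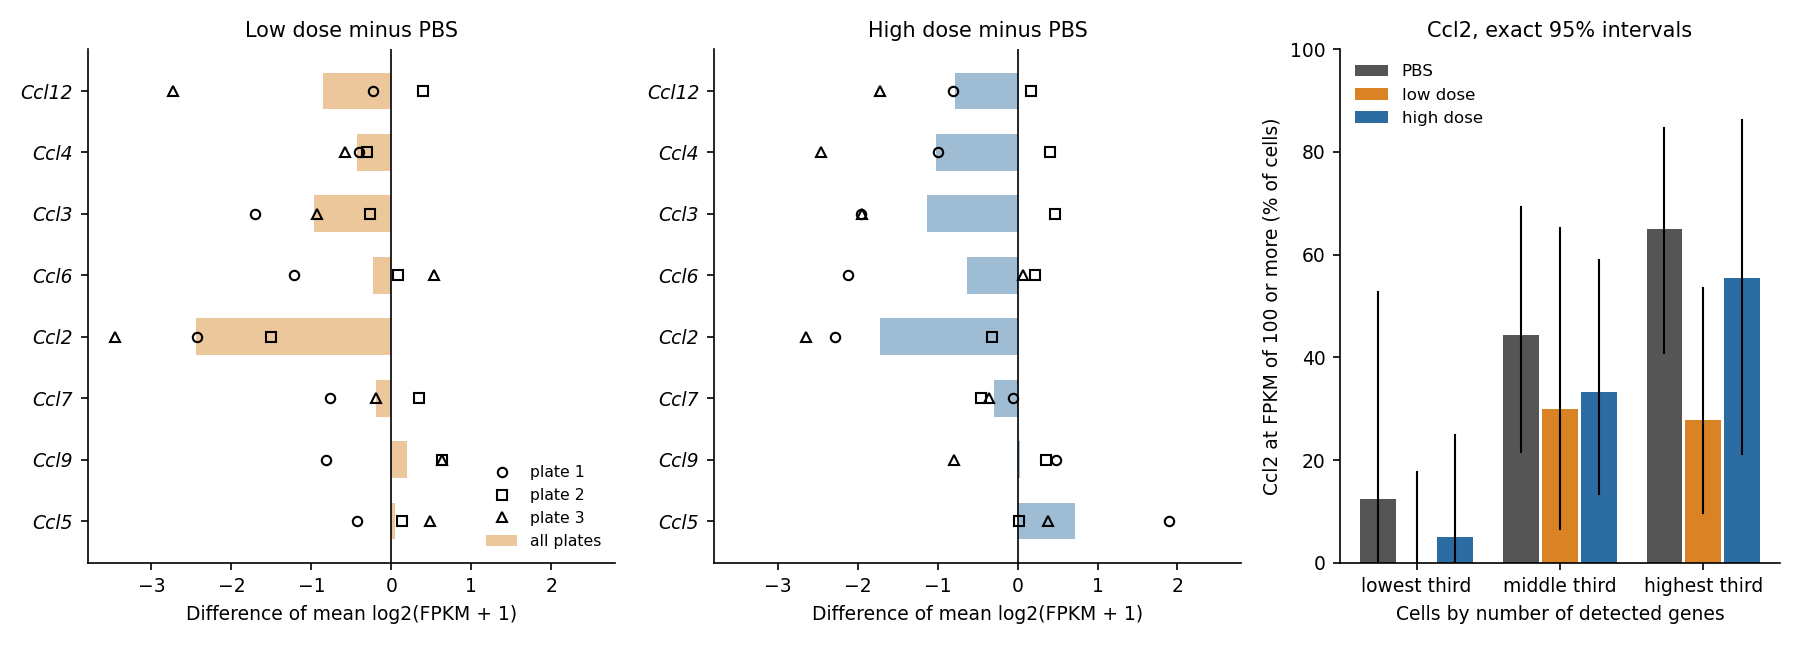
Difference of mean log2(FPKM + 1) between each dose and PBS for each member (left and middle; bars are all plates pooled, symbols are single plates) and the percent of cells with Ccl2 at an FPKM of 100 or more by tercile of detected genes (right; lines are exact 95% intervals). Ccl2 is negative on all plates at both doses (-2.44 and -1.71 pooled). Its share is highest in PBS in each tercile, in the lowest through 1 cell, and the intervals of the groups overlap in each tercile.

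The high dose was also compared with the low dose, on cells that both earlier comparisons use. The median over members was -0.13, with 5 of 8 below 0, against 72.0% of all genes and a median of -0.24. Ccl5, at 0.66, had passed the gene filter only through the high dose. Ccl2 was 0.73 higher under the high dose, positive on each plate (0.15, 1.19 and 0.81). On the log2 ratio of mean FPKM it was -0.85, so the direction of Ccl2 between doses depends on the scale. Ccl4 was -0.59 and Ccl6 -0.40, neither with the same sign on all plates.

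Other parts of the chemokine system were sparse. None of 13 further CC ligands reached FPKM 1 in 10% or more of cells, and Ccl8 was found in 1 cell. The CC receptor Ccr1 (17.1% of cells) and the atypical receptor Ccrl2 (34.3%) passed that line. Ccr2, the receptor for the most abundant ligand Ccl12, was found in 4 of 140 cells and at 100 or more in 0 of 140, which allows a share of up to 2.14% (3 counts of 140). Ccr1 was at 100 or more in 9 cells and Ccrl2 in 19. Ccrl2 differed from PBS by -0.42 and -1.13 at the low and the high dose, and Ccr1 by -0.52 and -0.36. High Ccrl2 was found in 9 PBS cells, 7 from the low dose and 3 from the high dose.

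Of 15 other chemokine ligands 5 passed the line, with 3 below 0 under the low dose and 5 under the high dose, beside 64.7% and 81.4% of all genes. Cxcl16, the transmembrane ligand of Cxcr6, was in 52.9% of cells and differed by 0.44 and -0.24. Pf4 differed by -0.40 and -0.29, Cxcl10 by -0.27 and -0.43, and Cxcl14 by -0.35 and -0.37. Of 9 other receptors only Cx3cr1, the fractalkine receptor of microglia, passed, in 95.7% of cells, and it differed by -0.75 and -0.16. Of 15 inducers and brakes of the family 12 passed, with 9 below 0 at each dose, also near the shares of all genes. Nfkbia, the NF-kB inhibitor that NF-kB itself induces, differed by -1.15 and -2.01 and was negative on every plate. Tnf differed by -0.97 and -1.39, also negative on every plate. Of all 4806 genes, 4.93% under the low dose and 13.4% under the high dose were at -1 or less and negative on every plate. The differences of this list are not adjusted for detected genes, and 3 of the 12 were above 0 at each dose. Nfkbiz was at -0.06 under the low dose and at -1.78 under the high dose, with 12, 13 and 3 cells at 100 or more in PBS, low dose and high dose.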

How the data were processed

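Single cells were sorted from the retina and each made 1 library by cDNA amplification and tagmentation with Nextera XT, per the labels' protocols. The authors deposited FPKM per gene and cell and a gene length in bases. The submitters' processing notes name Trim Galore 0.4.4, Trimmomatic 0.36, cutadapt 1.16, STAR 2.7.2b, featureCounts 1.6.1 and GRCm38.p6, and their settings and the use of strand are not given in the sources used here. FPKM multiplied by length summed to 1 constant per cell, and its most frequent positive value was taken as 1 read, which gave reads per cell. Values within 0.02 of a whole number were counted as whole. Cells that reached 1000 genes with FPKM at or above 1 were kept, and 4 were left out. Levels are means of log2(FPKM + 1), which understate differences of sparse genes, and differences are between such means over kept cells, pooled and by plate. As each group was 1 sample, no test was made. The calculation was tested on simulated data.

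The members and gene lists were chosen with earlier results of these data known. All 8 members are named. Others named are the 5 genes most correlated with each member (and with the summed family) that at least 25% of cells had, without Gm gene models, Rik clones or pseudogenes, the 2 genes of each list with the largest difference at each dose, and ligands or receptors in at least 50% of cells. Tnf, Il1a, Il1b and Gpr84 were added after their values were seen, as were Ccl8, Ccr2, the tercile counts and the line at 100. Coding sequences were aligned globally with Biopython 1.88, and figures were drawn with matplotlib 3.10.9, under Python 3.11.15 with numpy 2.4.6, pandas 2.3.3 and scipy 1.17.1. Alternatives varied the pseudocount, scale, cell filters, plates, marker-bearing cells and adjustment for detected genes. Some genes and sequences of the lists used are not reported here.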

Additional observations from a re-analysis of the deposited data

How the results depend on the processing

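The depth of a cell, from 30204 to 4668736 reads, and the number of cells limit what can be seen of Ccl5 and Ccl7. No paired analysis was possible because the labels give cells a well and a plate but no number that pairs them across groups, so plates were compared instead. Ccl2 kept its sign at both doses in the 18 alternatives that do not select cells by its level, from -3.45 to -0.54 at the low dose and from -2.64 to -0.31 at the high dose. Among cells at an FPKM of 100 or more alone the low dose difference was 1.06 and that of the high dose -0.64. The median over members, low dose minus PBS, was 0.12 as a log2 ratio of mean FPKM, 0.15 in cells with at least 2000 genes and -0.79 on plate 1 alone. For high dose minus PBS it was 0.19 on plate 2 alone. For high dose minus low dose it was -0.48 as a log2 ratio of mean FPKM, -0.32 on plate 3 alone, 0.0645 without plate 2, 0.17 without plate 3 and 0.10 after adjustment for detected genes. The cause of these shifts was not tested. Over the same 18 at the high dose, Ccl5 kept its sign in 18, Ccl7 in 17, and Ccl3, Ccl4 and Ccl12 in 16. Ccl6 kept its sign there in 13 and Ccl9 in 12. The Ccl5 values ran from 0.02 to 2.25, with only 4 high cells in the high dose group. At the low dose Ccl6 kept its sign in 10 of 18, Ccl9 in 12 and Ccl7 in 13. The counts of cells at an FPKM of 100, in terciles and without marker-bearing cells were added after seeing the data.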
